A study of Mus musculus with 5 samples.

Results

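The cytochrome P450 genes were examined in aortas of obese diabetic db/db mice and of db/+ mice. They were chosen by name alone, as every probe set of the array whose single annotated gene symbol is Cyp followed by a digit. The rule found 78 of the array's 22690 probe sets, which stand for 63 of 12393 named genes, and a further 4 probe sets that list several P450 genes were left out. All mice were males of the BKS.Cg-m +/+ Leprdb/J stock, 16 to 20 weeks old, on regular chow. The db mutation of Lepr removes the signalling form of the leptin receptor, db/db mice are homozygous for it, and the db/+ controls are heterozygous and so carry 1 mutant allele themselves. The m of the strain name is the misty coat colour allele, written there on the chromosome opposite to Leprdb. Read so, db/+ mice carry m and db/db mice do not, and the 2 differences cannot be told apart. The sources used here do not say which animals carried it. Each array held RNA pooled from 6 aortas stripped of adventitia and fat, so that an array is 1 pool and the spread shown is that between pools. The db/db group had 3 arrays (replicates 1, 2 and 3) and the db/+ group 2 (replicates 2 and 3), and a db/+ replicate 1 was not analysed here.

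P450 enzymes are heme proteins that insert an oxygen atom into lipids, steroids and foreign compounds. Most sit in the endoplasmic reticulum and take electrons from NADPH through the reductase Por, whereas a few lie in mitochondria and are served by ferredoxin. The liver makes the largest amounts and the most kinds. In the vessel wall the family is known for Cyp1b1 in smooth muscle and endothelial cells, for epoxygenases of families 2C and 2J that turn arachidonic acid into dilating epoxides, and for family 4 hydroxylases whose arachidonic acid product constricts vessels.

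Values are MAS5 signals, a background-corrected brightness per probe set on a linear scale, and signals of different probe sets are not compared with each other. Log2 changes are db/db minus db/+ on log2(signal + 16), with the standard error (SE) from limma, and they understate the change of dim probe sets. A probe set was tested if its mean log2 value over the 5 arrays exceeded the 40th percentile (a signal of 39.5), and it passed at a Benjamini-Hochberg adjusted p under 0.05 over all 13575 probe sets tested. Log2 values of any 2 arrays correlated across the tested probe sets with r between 0.952 and 0.977, and the lowest r belonged to db/db replicate 1 and db/+ replicate 2. Smooth muscle markers defined the tissue, with Acta2 between 6379 and 9147 and Myh11 between 3367 and 3916 on the 5 arrays. Fat was not absent, since Adipoq, the hormone adiponectin, read 1394 to 2791.

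Of the 78 P450 probe sets, 24 lay above that level (30.8%, against 60% of all probe sets), and they stood for 19 genes. One passed the test, the first probe set of Cyp1b1, which fell in db/db. With limma 1 of 24 passed downward and 0 upward, where 0.081% and 0% of all probe sets tested did so. Before adjustment, 7 members had a limma p under 0.05 with a lower value and 1 with a higher, beside 4.15% and 3.98% of all probe sets. At 8 members every db/db array was below every db/+ array and at 2 every one was above, beside 11.9% and 13.1% of all probe sets. The log2 change was below 0 at 17 of 24, beside 47% of all probe sets. The median log2 change was -0.12 over the 24 members and 0.02 over all probe sets tested. Members that share a gene, or a stretch of sequence with a related gene, are not independent, and of the 8 lower ones 2 belong to Cyp1b1 and 2 to Cyp2b10.

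**Figure D1:**
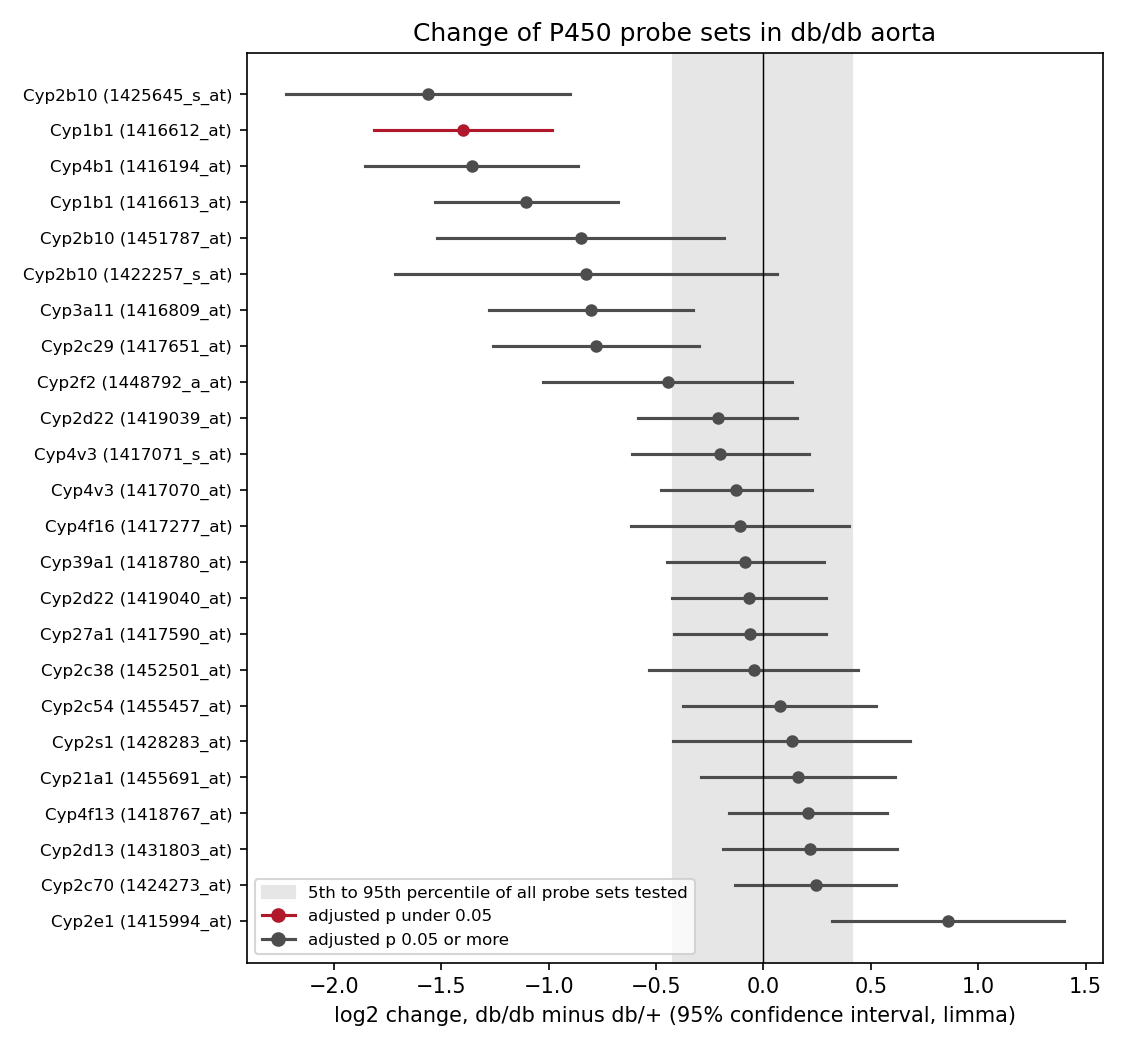
Log2 change (db/db minus db/+, horizontal axis) of the 24 P450 probe sets above the filter, with 95% confidence intervals from limma; the grey band runs from the 5th to the 95th percentile of all 13575 probe sets tested (-0.42 to 0.41). Only the first Cyp1b1 probe set, at -1.40, has an adjusted p under 0.05, and Cyp2e1, at 0.86, is the 1 member above the band.

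Cyp1b1 belongs to family 1, the P450s switched on by the aryl hydrocarbon receptor Ahr, and it oxidises oestradiol, retinol, arachidonic acid and polycyclic hydrocarbons. The first Cyp1b1 probe set (1416612_at) read 381, 374 and 327 in db/db replicates 1, 2 and 3, and 841 and 1132 in db/+ replicates 2 and 3. The 3 db/db arrays lay close together and below both db/+ arrays. The mean fell from 987 ± 206 (SD, n = 2) to 361 ± 29.2 (n = 3), a log2 change of -1.40 (SE 0.18, 95% confidence interval -1.81 to -0.99, limma adjusted p = 0.047). The second probe set (1416613_at) read 72.2, 99.1 and 65.5 in db/db and 184 and 188 in db/+. Again the genotypes did not overlap, with a log2 change of -1.10 (SE 0.19, interval -1.53 to -0.68, adjusted p = 0.084), which did not pass. Another Cyp1b1 probe set (1432081_at) lay under the filter, with 17.4, 23.3 and 12.8 in db/db and 29.6 and 13.6 in db/+, values that overlap.

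The Cyp1b1 call depended on which arrays entered. It held without db/db replicate 1 (log2 change -1.44, limma adjusted p = 0.046). It was lost without db/db replicate 2 (-1.43, adjusted p = 0.075), db/db replicate 3 (-1.33, 0.098), db/+ replicate 2 (-1.61, 0.15) or db/+ replicate 3 (-1.19, 0.54), and the last 2 of these fits leave a single db/+ array, whose spread is taken from the db/db arrays. The direction was the same in all 5.

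The other family 1 members were dim. Cyp1a1, the most inducible Ahr target of the liver, had 28.5, 38.8 and 54.5 in db/db and 33.2 and 45.5 in db/+, just under the filter at a filter value of 39.4, while Cyp39a1 lay just inside it at 40.6. Cyp1a2, a hepatic enzyme that clears caffeine, had 17.6, 25.5 and 4.90 against 8.40 and 14.1. Both overlapped between genotypes. In the Ahr pathway itself, of 6 measured genes 4 were tested and 0 passed with limma, and 0 had an unadjusted p under 0.05. Arnt, the partner of Ahr, had a log2 change of 0.09, Tiparp, an induced feedback inhibitor, -0.05, and the quinone reductase gene Nqo1 0.03. Ahr, which ranked next, had 35.1, 55.4 and 41.4 in db/db and 40.7 and 46.5 in db/+, a difference of -0.0035 on the log2 scale (SE 0.19).

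The sequence just before the start of 4 members is shown because they had the lowest values (Cyp1b1, Cyp4b1 and Cyp2b10) or the highest (Cyp2e1) among the tested members. Each run is the 250 bases before the RefSeq start in GRCm38.p6, 5′ to 3′ on the gene's own strand, at chr17:79715062-79715311 (minus strand) for Cyp1b1, chr4:115647722-115647971 (minus) for Cyp4b1, chr7:25897408-25897657 (plus) for Cyp2b10 and chr7:140763569-140763818 (plus) for Cyp2e1. Capitals mark matches to any of 3 short motifs on either strand. The core of the element that Ahr binds together with its partner Arnt is GCGTG. The element that nuclear receptors recognise singly or in pairs is written AGGTCA. The last motif searched was the TATA box in the form TATAAA.
Cyp1b1: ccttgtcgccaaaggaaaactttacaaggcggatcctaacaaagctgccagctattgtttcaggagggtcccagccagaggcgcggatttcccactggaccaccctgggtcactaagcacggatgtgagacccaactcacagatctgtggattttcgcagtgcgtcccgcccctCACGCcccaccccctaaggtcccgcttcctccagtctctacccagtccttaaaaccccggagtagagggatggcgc
Cyp4b1: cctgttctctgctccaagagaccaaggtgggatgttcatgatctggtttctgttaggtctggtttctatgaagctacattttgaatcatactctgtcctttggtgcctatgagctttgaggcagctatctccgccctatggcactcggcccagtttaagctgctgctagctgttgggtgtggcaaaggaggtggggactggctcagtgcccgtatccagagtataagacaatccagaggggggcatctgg
Cyp2b10: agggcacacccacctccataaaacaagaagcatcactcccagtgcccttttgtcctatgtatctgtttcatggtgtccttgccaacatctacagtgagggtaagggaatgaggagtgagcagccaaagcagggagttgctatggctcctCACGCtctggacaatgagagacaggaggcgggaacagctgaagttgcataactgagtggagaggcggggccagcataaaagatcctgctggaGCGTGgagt
Cyp2e1: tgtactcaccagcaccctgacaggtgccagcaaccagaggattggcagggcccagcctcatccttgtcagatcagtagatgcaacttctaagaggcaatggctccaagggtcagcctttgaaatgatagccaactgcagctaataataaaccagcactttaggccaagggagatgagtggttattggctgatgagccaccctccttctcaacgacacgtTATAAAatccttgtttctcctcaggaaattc

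In these windows Cyp1b1 held GCGTG once, on the opposite strand and beginning 76 bases before the start, and Cyp2b10 held it at 2 places. Cyp2e1 held a TATA box, and none of the 3 motifs was found in the Cyp4b1 window. RefSeq promoters matched 46 of the 63 P450 genes on the array, in 53 windows, and 14 of the 19 genes tested, with 1 window each. GCGTG stood in 22.6% of the 53 windows and in 28.2% of all 32851 windows of that length, TATAAA in 32.1% and 12.4%, and AGGTCA in 24.5% and 14%. Among the 14 tested genes 4 held GCGTG, and besides Cyp1b1 and Cyp2b10 they were Cyp4f16 and Cyp4v3, whose log2 changes lay between -0.20 and -0.11. A match is a string of letters and does not show that a factor binds there.

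**Figure D2:**
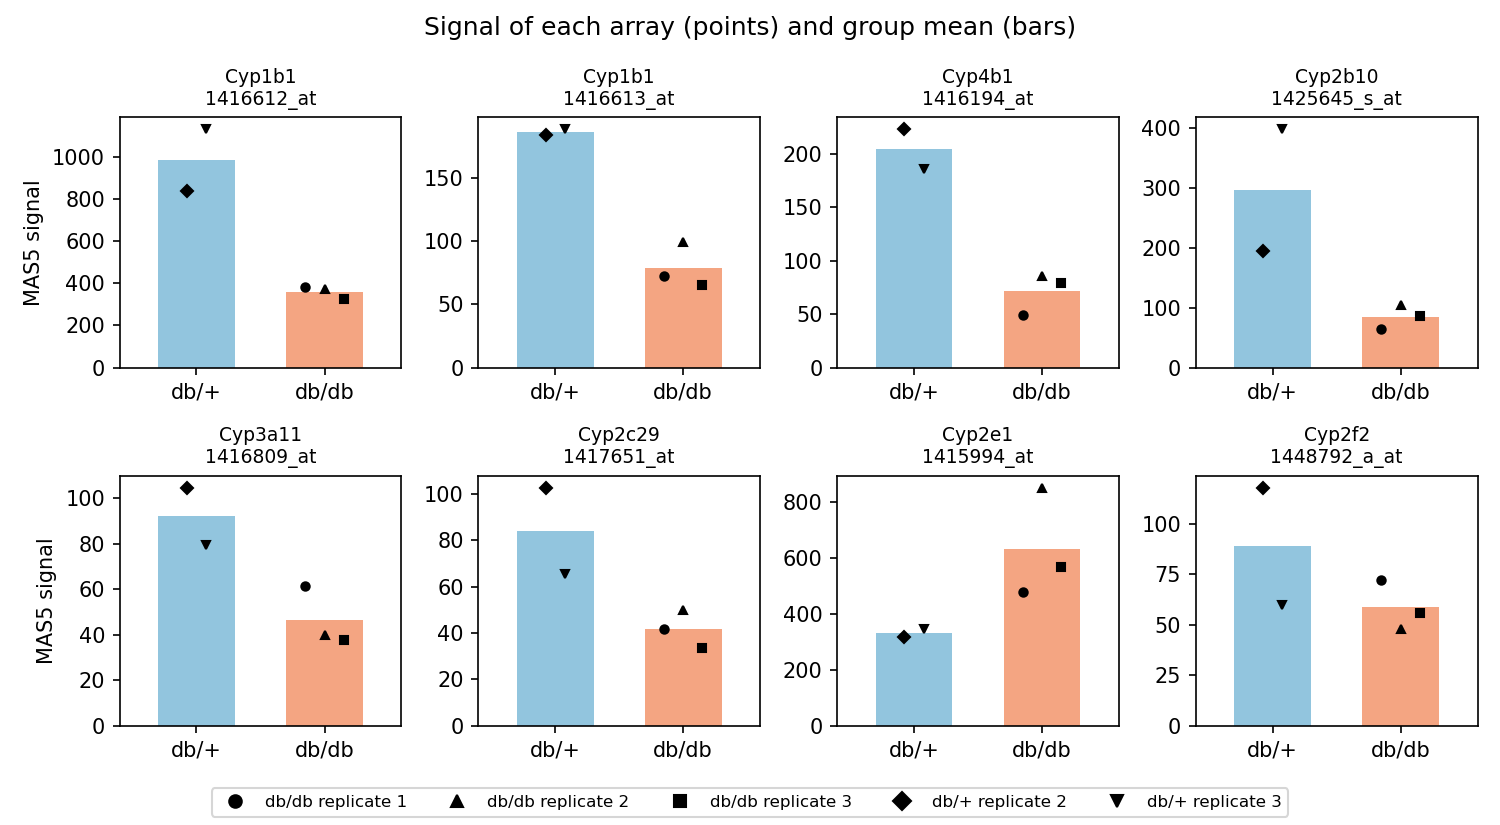
MAS5 signal (vertical axis, linear, from 0, its own scale in each panel) of 8 P450 probe sets in 2 db/+ and 3 db/db arrays; bars are group means and each point is 1 pool of 6 aortas. Both tested Cyp1b1 probe sets, Cyp4b1, Cyp2b10, Cyp3a11 and Cyp2c29 have all db/db points below the db/+ points, Cyp2e1 has them above, and Cyp2f2 overlaps. Cyp2b10 is shown by 1425645_s_at alone, which had the smallest p of its 3 probe sets, and 1422257_s_at, not shown, overlapped.

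Family 4 enzymes hydroxylate fatty acids at or near the end of the chain. Cyp4b1, which acts on short and medium chains and on protoxins of the lung, had 49.4, 85.4 and 79.1 in db/db and 223 and 186 in db/+. All db/db arrays were below both db/+ arrays, and replicate 1 was the lowest. The log2 change was -1.36 (SE 0.22, interval -1.85 to -0.86), with a limma adjusted p of 0.074, so that Cyp4b1 did not pass. Of 15 alternatives it was past the threshold in 3. These were a pseudocount of 64, limma's array weights and eBayes trend and robust (limma adjusted p = 0.043, 0.035 and 0.042). Among the others, a pseudocount of 1 and no filter gave limma adjusted p = 0.14 and 0.25. Leaving out 1 array at a time gave log2 changes between -1.48 and -1.16.

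The other tested family 4 members had smaller values. Cyp4f13 had 58.4, 50.2 and 45.2 in db/db and 43.7 and 40.5 in db/+, which did not overlap but differed by a log2 change of only 0.21 (SE 0.16, adjusted p = 0.82). Its neighbour Cyp4f16 had -0.11 (interval -0.62 to 0.40). Cyp4v3, a hydroxylase whose human counterpart is mutated in a retinal dystrophy, had -0.13 and -0.20 at its 2 probe sets, with intervals of -0.48 to 0.23 and -0.61 to 0.21. Of the 12 probe sets of this family 7 lay under the filter. Cyp4a12a and Cyp4a14, fatty acid hydroxylases of kidney and liver, were among them. They read 7.80 to 25.6 and 2.50 to 16.2 in db/db against 34.1 to 36.8 and 19.1 to 27.9 in db/+. These ranges did not overlap between genotypes. Cyp4f18, the enzyme that breaks down leukotriene B4 in neutrophils, read 4.10 or less on every array.

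Cyp2b10, the classic target of the constitutive androstane receptor Nr1i3, had 3 probe sets above the filter. The probe set 1425645_s_at read 64.7, 104 and 85.9 in db/db and 194 and 397 in db/+, and its log2 change was -1.56 (SE 0.29, limma adjusted p = 0.13). The probe set 1451787_at read 69.5, 76.7 and 50.5 against 85.7 and 193, which gave -0.85 on the log2 scale (SE 0.29, limma adjusted p = 0.47). The third, 1422257_s_at, read 70.2, 101 and 84.3 against 86.8 and 292, and here db/+ replicate 2 lay inside the db/db range (-0.83, SE 0.39, adjusted p = 0.65). None passed, and db/+ replicate 3 was the brightest array at all 3. Without that array the changes were -1.07, -0.33 and -0.03 in the order given, and without db/+ replicate 2 they were -2.05, -1.37 and -1.62. The 2 probe sets ending in s_at can also read related genes, and the Cyp2b genes are close copies of each other. Nr1i3 itself was between 2.60 and 3.80 on the 5 arrays, well under the filter.

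Other genes of the 2B group were under the filter. Cyp2b13 read 4.50, 4.50 and 3.50 in db/db and 26.9 and 35.3 in db/+, and Cyp2b19, a P450 of the epidermis, 22.7, 38.2 and 37.4 against 45.1 and 46.5. Neither overlapped between genotypes, while Cyp2b9 did. Their signals are near the level at which MAS5 values are mostly background, so no fold is given.

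Cyp2f2, the enzyme of lung club cells that activates naphthalene, had 72.4, 48 and 55.9 in db/db and 118 and 60 in db/+. The arrays overlapped, and the log2 change of -0.45 (SE 0.25, adjusted p = 0.72) rested on db/+ replicate 2, without which it was -0.04. The club cell secretoglobin Scgb1a1 read 282, 108 and 142 in db/db and 427 and 189 in db/+. The 5 arrays therefore stood in the same order for Cyp2f2 and Scgb1a1, highest in db/+ replicate 2 and next in db/db replicate 1. Scgb3a2, another secretoglobin, read 133, 51.9 and 42.9 in db/db and 137 and 93.4 in db/+ (log2 change -0.62). It too was highest in db/+ replicate 2 and next in db/db replicate 1. The surfactant genes did not follow that order. Sftpb read 81.3, 119 and 149 in db/db and 81.3 and 72.8 in db/+ (log2 change 0.48). Sftpc read 64, 44.7 and 44.5 against 41.4 and 31.1 (0.35). Of the 6 lung epithelium markers measured, Nkx2-1 and Sftpa1 lay under the filter, and the summed signal was 364 to 600.2 in db/db and 414.5 to 732 in db/+. Their part in Cyp2f2 was not tested. Cyp2s1, an epithelial P450, had a log2 change of 0.13 (interval -0.42 to 0.68).

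The family 2C genes form a cluster on chromosome 19 and include arachidonic acid epoxygenases. Of 11 measured genes 4 were tested. Cyp2c29, a liver enzyme that makes epoxides from arachidonic acid, read 41.5, 50 and 33.5 in db/db and 103 and 65.5 in db/+. All db/db arrays were lower, and the log2 change was -0.78 (SE 0.21, interval -1.26 to -0.30, limma adjusted p = 0.32), which did not pass. It was -0.51 without db/+ replicate 2. Cyp2c70, the liver enzyme that makes muricholic acids from bile acids in mice, had 66.7, 80.1 and 81.3 against 56.3 and 67.2 (0.24, SE 0.16, adjusted p = 0.79). Cyp2c38 and Cyp2c54 had -0.05 and 0.08, with intervals of -0.53 to 0.44 and -0.37 to 0.53. The intervals of Cyp2c70 (-0.13 to 0.62), Cyp2c38 and Cyp2c54 all included 0, so their directions were not settled. The other family of epoxygenases, 2J, had 5 probe sets of 4 genes, and all were under the filter, with mean signals between 1.54 and 19.7.

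Cyp3a11, the main 3A enzyme of mouse liver and a target of the receptor Nr1i2, read 61.3, 40 and 37.7 in db/db and 105 and 79.2 in db/+. The genotypes did not overlap, the log2 change was -0.80 (SE 0.21, interval -1.28 to -0.33) and the limma adjusted p was 0.30. The other 4 genes of the group were under the filter, with mean signals of 17.5 or less. Nr1i2 read 18.4 to 31.0 and was under the filter too.

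Family 2D, a cluster on chromosome 15, clears many drugs in liver. Cyp2d22 had 56.0, 42.8 and 47.5 in db/db and 56.5 and 61.2 in db/+ at the probe set 1419039_at (-0.21, SE 0.16, adjusted p = 0.81), where the arrays only just failed to overlap. At 1419040_at it had 85.8, 84.1 and 76.8 against 80.0 and 94.2 (-0.07, interval -0.43 to 0.29), and they overlapped. Cyp2d13 had 71.9, 80.2 and 55.3 against 58.9 and 54.5 at 1431803_at (0.22, SE 0.18, adjusted p = 0.83), and its other probe set, 1425365_a_at, lay under the filter with 1.5, 2.1 and 13 against 7 and 10.4, which overlap. Cyp2d10, Cyp2d26 and Cyp2d34 lay under the filter with all db/db arrays below the db/+ arrays, at most 24.4 in db/db and at least 13.6 in db/+.

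Hepatocyte markers were read because these P450 genes are of liver type. Of 12 measured, 8 were tested and 2, Alb and Bhmt, fell by the limma test. On all db/db arrays 4 of the 8 were lower and 1 was higher, beside 11.9% and 13.1% of all probe sets tested. Of those under the filter, Arg1, Fga and Fgb were lower on all db/db arrays, beside 8.57% of all probe sets under the filter. Tdo2 overlapped. The summed signal of the 12 was 448 to 648 in db/db and 1239 to 1355 in db/+, and Fgb, a defining hepatocyte gene, read 1.30 to 3.40 on the 5 arrays. Hnf4a, the hepatocyte transcription factor, had a log2 change of 0.31 (SE 0.17) at its brightest probe set. Its other probe sets lay under the filter, with means of 26.0, 7.10 and 9.57 in db/db and 18.0, 6.50 and 12.6 in db/+. The part of liver-type RNA in the values of Cyp2c29 and Cyp3a11 was not tested. In a bulk sample fewer cells of a type and less RNA per cell cannot be told apart.

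Cyp2e1 went the other way. This enzyme oxidises ethanol, acetone and fatty acids in liver and in fat. It read 479, 854 and 568 in db/db and 319 and 347 in db/+, and all db/db arrays were higher. The mean was 634 ± 196 (n = 3) against 333 ± 19.9 (n = 2), a log2 change of 0.86 (SE 0.24, interval 0.32 to 1.40, limma adjusted p = 0.33), so that it did not pass. Leaving out any 1 array gave values between 0.63 and 1.03. The brightest array, db/db replicate 2, was also the one with the highest summed signal of 7 measured adipocyte markers (15903, against 8600 and 12601 in the other db/db arrays and 12543 and 12068 in db/+). Of these markers Lep, the leptin gene, fell by the limma test, and Ucp1, the marker of brown fat, read 2136, 4335 and 3445 in db/db and 2503 and 2665 in db/+. Retn, the adipocyte hormone resistin, read 270, 404 and 273 in db/db and 214 and 219.8 in db/+ (log2 change 0.49, SE 0.20, limma adjusted p = 0.60), and its 5 arrays stood in the same order as those of Cyp2e1. Adipoq went the other way and was lower on all db/db arrays (log2 change -0.44, SE 0.22). Cidec, Fabp4 and Cidea overlapped between genotypes, with log2 changes of -0.13, -0.06 and 0.07. The adipocyte sums, which the brightest probe sets dominate, overlapped between genotypes and Cyp2e1 did not. The part of fat in the Cyp2e1 value was not tested.

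**Figure D3:**
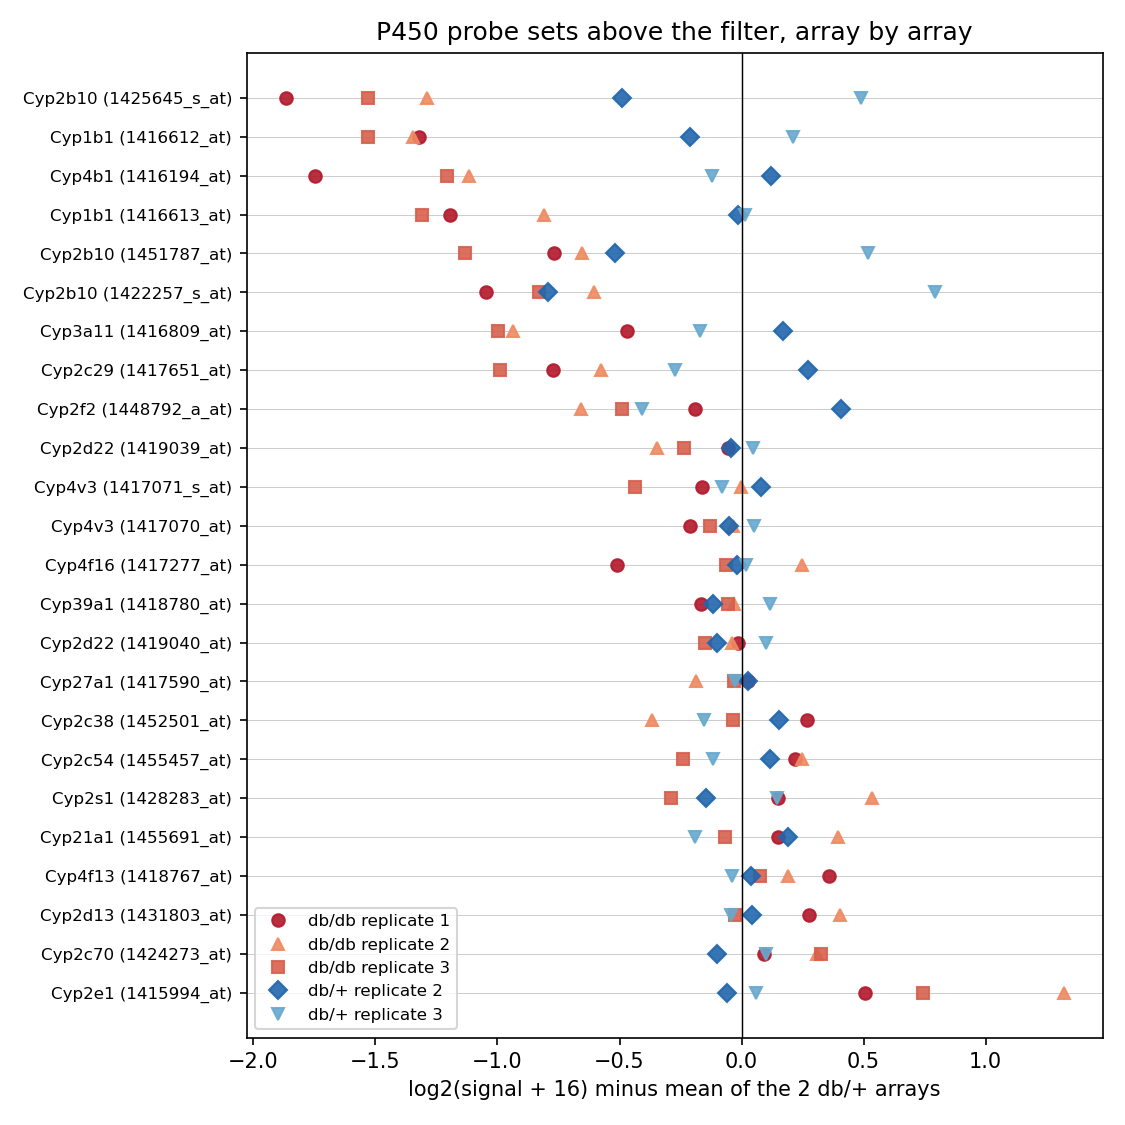
Each of the 5 arrays for the 24 P450 probe sets above the filter, as log2(signal + 16) minus the mean of the 2 db/+ arrays (horizontal axis); red and orange symbols are db/db and blue symbols db/+. The db/+ arrays lie far apart for the 3 Cyp2b10 probe sets and nearly together for the second Cyp1b1 probe set, and the lower part of the plot ends with Cyp2e1, where the db/db arrays lie to the right.

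P450s of sterol and bile acid metabolism showed small values. Cyp27a1, the mitochondrial sterol hydroxylase that lets macrophages and vessel cells turn cholesterol into an oxysterol, read 157, 134 and 150.4 in db/db and 157 and 151 in db/+. Its log2 change was -0.06 with an interval of -0.42 to 0.29. Cyp39a1, which hydroxylates an oxysterol of brain origin, had -0.08 (interval -0.45 to 0.28). The other 9 of 11 probe sets lay under the filter. Among them were 3 probe sets of Cyp51, the demethylase of cholesterol synthesis, and the bile acid genes Cyp7a1 and Cyp8b1. Of the other genes of late cholesterol synthesis 9 were measured and tested and 0 passed with limma (0 at an unadjusted p under 0.05). Sc5d, Msmo1 and Tm7sf2 had log2 changes of -0.33, -0.23 and 0.28, and a dimmer probe set of Sc5d had 0.42.

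Hormone and vitamin enzymes were near background. Cyp11a1, which opens steroid synthesis, read 2.40 to 4.40 on the 5 arrays, and Cyp17a1 and Cyp11b2 were under the filter as well. Cyp21a1 had 1 probe set above it, with a log2 change of 0.16 (interval -0.29 to 0.61), and 1 below. Of 5 adrenal cortex markers, Mc2r, Nr5a1 and Hsd3b1 were under the filter, and the summed signal was 295.5 to 333 in db/db and 212 to 274 in db/+. Their part in the Cyp21a1 value was not tested. Star, the protein that brings cholesterol to Cyp11a1, had 114, 81.5 and 89.3 in db/db and 68.5 and 43.8 in db/+ (0.63, SE 0.21, adjusted p = 0.45). Its other probe sets lay under the filter, with means of 6.10 and 7.57 in db/db and 8.10 and 11.85 in db/+. Cyp24a1 and Cyp27b1, which inactivate and activate vitamin D, had mean signals between 3.40 and 13.0. Cyp26a1, which clears retinoic acid, read 14 to 25.8.

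In all, 54 P450 probe sets lay under the filter, with mean signals from 1.54 to 40.1 and a median of 15.1, and 44 of the 63 genes had no probe set above it. Among these 54 the arrays did not overlap at 11 in the lower direction and at 4 in the higher, beside 8.57% and 12.2% of all 9051 probe sets under the filter. The 4 higher ones were both probe sets of Cyp24a1, and 1 each of Cyp7b1 and Cyp51, none above 18.8 on any array. The 11 lower ones were Cyp2b13, Cyp2b19, Cyp2c37, Cyp2d10, Cyp2d26, Cyp2d34, Cyp2j9, Cyp3a16, Cyp3a25, Cyp4a12a and Cyp4a14. These counts were taken without a test and rest on signals near background. Of the tested members 1, Cyp39a1, had a db/db mean under the filter's level.

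Partner genes of P450s, among them enzymes, receptors and carriers, were read from lists of 82 genes, of which 72 were measured and 52 tested. None passed with limma (smallest adjusted p = 0.061), while 4 with a lower and 4 with a higher value had an unadjusted p under 0.05, beside 4.15% and 3.98% of all probe sets tested. Electron carriers had 0 of 7 past the threshold, 0 at an unadjusted p under 0.05 and a median log2 change of -0.03. Cyb5b, Cyb5a and Cyb5r3, of the cytochrome b5 system, had 0.18, -0.16 and -0.17, and Por was not analysed here. Heme supply had 0 of 11. Alas1, the first and limiting step of heme synthesis, read 271, 271 and 261 in db/db and 420 and 353 in db/+ (-0.50, SE 0.16, adjusted p = 0.42), Hmox1, which breaks heme down, read 59.0, 50.5 and 50.2 against 85.0 and 73.8 (-0.46, SE 0.16, adjusted p = 0.47), and Ppox had -0.40. Alas1 and Hmox1 did not overlap between genotypes and were the 2 with an unadjusted p under 0.05, while a dimmer probe set of Alas1, of a type that can read related sequences, had 0.54 (adjusted p = 0.78).

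Of the receptors that govern P450 genes, 8 of 16 measured were tested and 0 passed, with 1 at an unadjusted p under 0.05. That was Rxra, the shared partner of most of them, at 273, 272 and 237 in db/db and 177 and 180 in db/+ (0.51, SE 0.16, adjusted p = 0.41; its other tested probe set had -0.04), while Hnf4a had 0.31 and Ppara -0.34. Among genes of epoxides and prostanoids 0 of 5 passed, with 0 at an unadjusted p under 0.05. Ephx2, which hydrolyses the epoxides of arachidonic acid, had -0.30 (SE 0.24), Ptgs2 -0.29 and Pla2g4a -0.16. Of the genes around oxysterols and steroids 0 of 6 passed and 3 had an unadjusted p under 0.05, namely Hsd11b1, which regenerates corticosterone (-0.61, SE 0.20), Star and Stard3 (0.57, SE 0.22).

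Retinoid genes share a substrate with Cyp1b1, and 2 of 8 measured were tested. Aldh1a1, which oxidises retinal to retinoic acid, read 172, 145 and 118 in db/db and 329 and 397 in db/+. It had the smallest p of the partner genes (-1.24, SE 0.19, limma adjusted p = 0.061) and did not pass. Rdh10, which makes retinal from retinol, had 70.3, 79.4 and 73.0 against 51.1 and 54.1 (0.39, SE 0.15, adjusted p = 0.55).

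Summed signals of several marker lists were lower on all db/db arrays, as were both tested Cyp1b1 probe sets and Cyp4b1. The summed signal of 8 macrophage markers was 2068 to 2408 in db/db and 3566 to 4310 in db/+, with 7 of the 8 lower on all db/db arrays, beside 11.9% of all probe sets tested. For 5 mast cell markers it was 336 to 410.1 against 734 to 749, with 4 of the 5 lower on all db/db arrays, and for 8 endothelial markers 1245 to 1595 against 1941 to 2113, with 6 of the 8 lower. In these 3 lists 0 markers passed with limma, although 7 macrophage, 4 mast cell and 5 endothelial markers had an unadjusted p under 0.05. Kdr, Cdh5 and Kit overlapped, with log2 changes of 0.04, -0.06 and 0.04. Of 6 mesothelial markers 3 were tested and were lower on all db/db arrays, and Prg4 fell by the test; the sum was 408 to 477.5 against 867 to 990.2, and the defining genes Msln, Krt19 and Wt1 were under the filter. Smooth muscle sums, at 27599 to 33754 against 24922 to 28463, and fibroblast sums, at 18380 to 22163 against 18847 to 21045, overlapped between genotypes. All 8 smooth muscle markers had a log2 change above 0 (median 0.19), and Lmod1, Smtn, Myl9 and Myh11 were higher on all db/db arrays, that is 4 of 8 beside 13.1% of all probe sets tested, with 0 past the limma test and 0 at an unadjusted p under 0.05. One of 8 fibroblast markers, Dcn, was higher on all db/db arrays. The 4 kidney markers, of a tissue rich in family 2 and 4 enzymes, had sums of 203.5 to 267 against 177 to 200.3, higher in db/db, with Umod and Slc22a6 under the filter. That sum followed Kap (167, 204 and 149 against 129 and 133), while Slc34a1, the other kidney marker tested, had a log2 change of -0.27 and overlapped. The part of these cells in the P450 values was not tested.

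**Figure D4:**
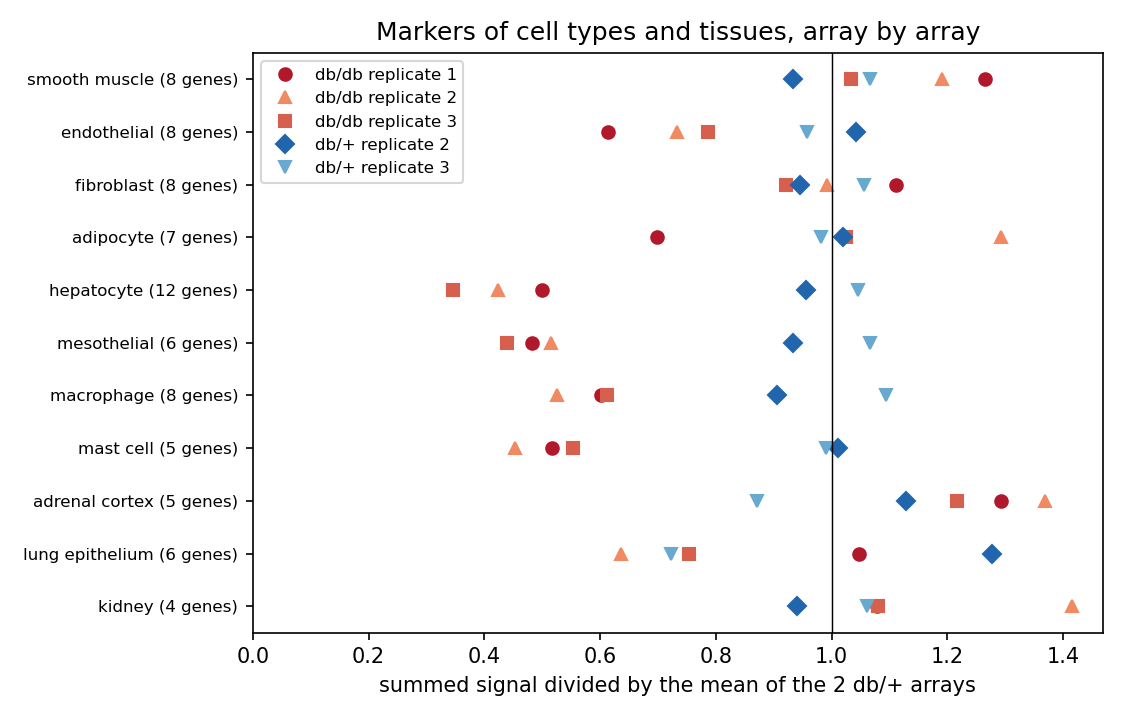
Summed signal of each marker list on each array, divided by the mean of the 2 db/+ arrays (horizontal axis, linear); red and orange symbols are db/db and blue symbols db/+, and the number of genes measured is given with each list. Hepatocyte, mesothelial, macrophage, mast cell and endothelial sums are lower on all 3 db/db arrays, kidney and adrenal cortex sums are higher, and smooth muscle, fibroblast, adipocyte and lung epithelium sums overlap.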

How the data were processed

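The authors deposited signal intensities per probe set on a linear scale; the submitters' processing notes name MAS5 without a version. MAS5 scales each array, and the 2% trimmed means lay between 150.049 and 150.053, so nothing further was normalized. After 64 controls were removed, 22626 probe sets remained, and 20380 had 1 gene symbol in the platform annotation. All 78 P450 probe sets matched RefSeq by Entrez identifier with the same symbol. Promoters come from RefSeq, GRCm38.p6.

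Values were taken as log2(signal + 16), filtered at the 40th percentile of their mean and fitted with limma 3.58.1 in R 4.3.3 (lmFit, eBayes, two-sided, no covariates; 3 residual and 5.63 prior degrees of freedom), with Benjamini-Hochberg adjustment over 13575 probe sets. The fit was tested on simulated data. The alternatives were other pseudocounts, filters, scalings, variance models, a replicate block and leaving out each array; the filter was first run on the arithmetic mean signal and then set on the log2 mean, to match an earlier analysis of these data, with both results seen. List genes were read by their brightest probe set, 1 per gene. All tested members are named; per-array signals are given for the 14 with the smallest p and all probe sets of their genes. The 3 partner genes of each list with the smallest p are named. The number of arrays limits precision. Ahr, Alb, Bhmt, Prg4, Retn and other genes outside these rules were chosen after their values were seen. The members and lists were chosen with earlier results of these data known.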

Additional observations from a re-analysis of the deposited data

How the results depend on the processing

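Of the 24 tested P450 probe sets, 18 kept their direction under all alternatives they could be computed for, of 15 in all. One of these, a filter on the arithmetic mean signal, was not planned as an alternative. It was the filter run first, and the log2 mean replaced it with both results seen. The arithmetic filter gave 13 probe sets past the threshold, 1 P450 probe set (Cyp1b1, limma adjusted p = 0.046) and 0 partner genes. The first Cyp1b1 probe set no longer passed with a pseudocount of 1 (log2 change -1.44, limma adjusted p = 0.099), with no filter (-1.40, 0.17), with quantile normalization (-1.39, 0.069) or with the replicate number as a block (-1.44, 0.066), and leaving out 1 array at a time it ranged from -1.61 to -1.19. The second passed with array weights (-1.14, adjusted p = 0.039) and ranged from -1.25 to -1.002 with 1 array left out. The count of P450 probe sets past the threshold, 1 in the report, was 0 with a pseudocount of 1, with no filter, with quantile normalization and with the replicate block, 2 with a pseudocount of 64 and with eBayes trend and robust, 3 with array weights, and 0 to 1 with 1 array left out. Over all probe sets the count of 11 became 2 and 37 with pseudocounts of 1 and 64, 1 with no filter, 22 with a filter at the 60th percentile, 19 with median centring, 39 with trend and robust, 48 with array weights, 20 with the replicate block and 0 to 28 with 1 array left out. Of the partner genes, 1, Aldh1a1, passed with a pseudocount of 64, a filter at the 60th percentile, trend and robust, and array weights, and 0 to 1 passed with 1 array left out. Cyp4f16 turned to 0.091 with the replicate block, where db/db replicate 1 has no partner. Direction also turned with 1 array left out for Cyp4f16 (range -0.29 to 0.091), Cyp2s1 (-0.070 to 0.34), Cyp2c38 (-0.20 to 0.12), Cyp2c54 (-0.041 to 0.23), Cyp2d22 at 1419040_at (-0.17 to 0.032) and Cyp21a1 (-0.030 to 0.35). The causes were not tested. The shared replicate numbers 2 and 3 form 2 pairs, whose deviations correlated with r = 0.064. With only 2 pairs this value cannot show whether samples of the same number belong together. Signals near background limit 54 of the 78 probe sets.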

Other observations

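The 4 probe sets that list several P450 genes entered no count. The probe set shared by Cyp4a31 and Cyp4a10 read 21.6, 38.1 and 27.6 in db/db and 45.3 and 52.4 in db/+, without overlap but under the filter. That of Cyp4f37 and Cyp4f16 was tested and differed by -0.24 on the log2 scale (SE 0.19, limma adjusted p = 0.83). The probe set of Cyp2a5 and Cyp2a4, which hydroxylate coumarin and steroids, had 5.20 to 19.1 in db/db and 17.9 to 31.2 in db/+, and that of Cyp3a41b and Cyp3a41a had 0.80 to 10.6 and 4.70 to 10.3. Both overlapped.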
